A study of Mus musculus with 8 samples.

Results

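Globin and erythroid genes were examined in murine megakaryocytes (MKs) cultured alone or with mesenchymal stromal cells (MSCs). A fixed list of 9 genes was looked up by symbol in the table of raw gene counts, which holds 13387 genes. The list has 2 alpha globins (Hba-a1 and Hba-a2), 2 beta globins (Hbb-bs and Hbb-bt), the erythroid enzyme of heme synthesis (Alas2), the erythroid transcription factor Klf1, 2 red cell membrane genes (Slc4a1 and Epb42) and carbonic anhydrase II (Car2). Of these, 7 had a row, and Slc4a1 and Epb42 were not analysed here.

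There were 4 libraries of MKs cultured alone and 4 libraries of MKs cocultured with MSCs, all after 18 hours of culture and all of C57BL/6 genotype, with no drug or mutation in either group. MKs were enriched from flushed bone marrow with beads against CD41, and MSCs were sorted from bone marrow as CD45- Ter119- CD31- CD51+ CD140a+ cells. Several wells were pooled for each library, and RNA was amplified with a low-input kit that copies full-length transcripts. The labels describe the sequenced cells as MKs from bone marrow, whereas the study's methods describe platelets shed in the culture, so the material is called MK cultures here.

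In the cocultures, Car2 was lower in every library. Klf1 was lower in every library at far smaller counts. Alas2 was also lower in every library, but it had at most 14 counts in a library, and only library size separated its nearest libraries. Hba-a1, Hba-a2 and Hbb-bs were lower in replicates 1, 2 and 4 of the cocultures but were at their highest in replicate 3. Hbb-bt overlapped between the groups. With all 8 libraries, only Car2 passed the test across all genes. Without coculture replicate 3, Car2, Klf1, Hba-a2 and Hbb-bs passed it, each lower with MSCs.

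Adult hemoglobin is a tetramer of alpha and beta globin chains, each of which holds a heme, and red cell precursors make the chains in near balance. KLF1 binds CACCC boxes in the promoters of the adult beta globin and many other erythroid genes and acts beside GATA1, a factor that MKs and red cell precursors share. Both lineages arise from a common progenitor in the bone marrow, where maturing red cells are abundant. ALAS2 catalyses the entry step of heme synthesis in red cell precursors, and CAR2 hydrates carbon dioxide in red cells and also acidifies the resorption space of osteoclasts.

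The globins of each pair are nearly the same in their coding sequence, which bears on how far counts of one copy can be told from counts of the other. The coding sequences of Hba-a1 and Hba-a2 (426 bases) differed at 1 base in GENCODE vM21 on GRCm38, and those of Hbb-bs and Hbb-bt (441 bases) also at 1 base. The windows shown are 60 coding bases in the last exon of each gene, at chr11:32284313-32284372 (Hba-a1, plus strand), chr11:32297130-32297189 (Hba-a2, plus strand), chr7:103826668-103826727 (Hbb-bs, minus strand) and chr7:103812659-103812718 (Hbb-bt, minus strand). The capital marks the base that differs within a pair, which is C381T from Hba-a1 to Hba-a2 and C417T from Hbb-bs to Hbb-bt, counted from 1 at the A of the start codon.
Hba-a1: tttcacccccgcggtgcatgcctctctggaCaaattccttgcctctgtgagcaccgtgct
Hba-a2: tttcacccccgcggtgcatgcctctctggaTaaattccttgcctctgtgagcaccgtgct
Hbb-bs: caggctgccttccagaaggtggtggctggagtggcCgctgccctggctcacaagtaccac
Hbb-bt: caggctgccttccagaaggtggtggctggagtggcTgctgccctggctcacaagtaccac

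Over the whole transcripts, 92.6% of the 31-base words of Hba-a2 and 75.4% of those of Hba-a1 were found in the other alpha globin. Of the words of Hbb-bs, 54.4% were found in Hbb-bt, and 59.4% of the words of Hbb-bt were found in Hbb-bs. The words particular to a single copy came to 7.40% in Hba-a2, 24.5% in Hba-a1, 45.6% in Hbb-bs and 40.6% in Hbb-bt. The split of counts within a pair, above all within the alpha pair, is therefore uncertain, and the sums of each pair are given beside the single genes. The alpha globins lie on chromosome 11 (Hba-a1 at chr11:32283511-32284465 and Hba-a2 at chr11:32296489-32297298, plus strand), and the beta globins lie on chromosome 7 (Hbb-bs at chr7:103826534-103828096 and Hbb-bt at chr7:103812524-103813996, minus strand).

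The promoters of the members are shown because KLF1 and GATA1 act through short motifs that can be read in them. RefSeq promoters on GRCm38.p6 were matched by symbol for 7 of the 9 genes, and the 250 bases before the start annotated in RefSeq were searched. The GENCODE gene spans begin further upstream and overlap these windows. Capitals mark GATAA (the core of a GATA motif), the CACCC box, the CCAAT box and the TATAA box on either strand, so their reverse complements are also in capitals. The windows are chr11:32296242-32296491 (Hba-a2, plus strand), chr7:103827929-103828178 (Hbb-bs, minus strand), chr7:103813924-103814173 (Hbb-bt, minus strand), chrX:150547167-150547416 (Alas2, plus strand) and chr8:84901732-84901981 (Klf1, plus strand). The window of Hba-a1 is not shown because 247 of 247 bases compared with Hba-a2 were identical at a shift of 3 bases.
Hba-a2: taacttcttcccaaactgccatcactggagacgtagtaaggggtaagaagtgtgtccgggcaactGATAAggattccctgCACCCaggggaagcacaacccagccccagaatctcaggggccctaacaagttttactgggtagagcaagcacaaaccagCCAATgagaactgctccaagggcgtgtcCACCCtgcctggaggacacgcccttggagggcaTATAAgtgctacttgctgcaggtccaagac
Hbb-bs: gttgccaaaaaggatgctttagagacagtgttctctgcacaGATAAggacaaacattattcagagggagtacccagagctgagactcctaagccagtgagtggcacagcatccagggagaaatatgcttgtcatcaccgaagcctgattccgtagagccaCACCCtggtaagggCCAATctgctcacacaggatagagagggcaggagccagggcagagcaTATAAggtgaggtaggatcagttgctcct
Hbb-bt: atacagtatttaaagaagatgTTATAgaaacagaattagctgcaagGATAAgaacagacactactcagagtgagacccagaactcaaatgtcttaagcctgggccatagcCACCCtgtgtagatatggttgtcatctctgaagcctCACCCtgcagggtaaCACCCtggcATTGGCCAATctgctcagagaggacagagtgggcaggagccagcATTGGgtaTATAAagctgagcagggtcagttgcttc
Alas2: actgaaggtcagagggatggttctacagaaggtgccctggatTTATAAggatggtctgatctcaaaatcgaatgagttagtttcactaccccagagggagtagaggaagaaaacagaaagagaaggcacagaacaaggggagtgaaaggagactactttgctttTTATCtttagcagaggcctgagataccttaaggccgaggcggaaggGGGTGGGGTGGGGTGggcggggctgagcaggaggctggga
Klf1: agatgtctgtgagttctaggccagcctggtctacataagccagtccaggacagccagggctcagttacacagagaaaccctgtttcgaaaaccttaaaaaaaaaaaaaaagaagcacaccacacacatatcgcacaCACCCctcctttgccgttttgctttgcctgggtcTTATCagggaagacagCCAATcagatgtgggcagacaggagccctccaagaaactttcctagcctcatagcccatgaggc

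Each of the 5 windows held 1 copy of GATAA, and each also held CACCC, with 3 copies in Hbb-bt, 3 copies laid end to end on the minus strand in Alas2, 2 in Hba-a2 and 1 each in Hbb-bs and Klf1. Among 32851 RefSeq promoters of the same length, 22.6% held GATAA, 52.0% held CACCC and 10.1% held both. CCAAT was present in Hba-a2, Hbb-bs, Hbb-bt and Klf1 but not in the Alas2 window, against 33.8% of all promoters. TATAA was present in Hba-a2, Hbb-bs, Hbb-bt and Alas2 but not in the Klf1 window, against 22.8% of all promoters, and the 2 TATAA copies counted in Alas2 overlap on opposite strands. Epb42, for which a promoter was also found, held 1 GATAA and no CACCC. These matches describe letters in a window and do not show that a factor binds there.

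Libraries held between 4939874 and 12523616 counts, and 1 library stood apart. Coculture replicate 3 had the most counts but only 10735 genes with a count, against 12406 or more in every other library, and in it 1012 genes stood at 0 despite having 10 counts or more in each of the other libraries, against 4 or fewer such genes elsewhere. Counts of calls and fold changes are therefore given with and without this library. Levels are in CPM (counts brought to a common library size with TMM factors), and the floor of 3 counts lay between 0.284 and 0.662 CPM depending on the library. A fold change is that of cocultures against MKs cultured alone, and a gene was called where edgeR, fitted across all genes, gave an adjusted p no higher than 0.05 and a change of 2-fold or more, with a group mean no lower than 1 CPM. The labels do not tie libraries to animals, and the study gives its group size in mice for material that it calls platelets. If the libraries of a group did not come from separate animals, the p-values measure only the spread between these libraries.

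Hba-a2 was the alpha globin with nearly all of the alpha counts. In MKs cultured alone it was at 9.49, 12.7, 21.5 and 17.2 CPM in replicates 1 to 4 (15.2 ± 5.26, SD, n = 4). In the cocultures it was at 1.23, 1.82, 29.8 and 2.95 CPM. Replicates 1, 2 and 4 of the cocultures were thus below every library of MKs cultured alone, and replicate 3 was above every one. The log2 fold change was -0.76 ± 0.993 (SE) with all 8 libraries, with an edgeR adjusted p of 0.623. Without coculture replicate 3 it was -3.01 ± 0.395, with an edgeR adjusted p of 7.39e-06, and the coculture level was 2.0 ± 0.872 CPM (SD, n = 3).

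Hba-a1, the other alpha globin, was too low for the test across all genes. It had 5, 9, 14 and 10 counts in MKs cultured alone (1.1, 0.928, 1.55 and 1.63 CPM) and 0, 3, 17 and 2 counts in the cocultures (0, 0.391, 1.78 and 0.347 CPM). As for Hba-a2, coculture replicates 1, 2 and 4 were below every library of MKs cultured alone and replicate 3 was above them. The order within each group differed from that of Hba-a2. Because 75.4% of the 31-base words of Hba-a1 are shared with Hba-a2, the counts of the copies may not be independent. An exact two-sided permutation test on CPM gave p = 0.2 with all 8 libraries, and without replicate 3 the p was 0.0571, the smallest that 4 libraries against 3 allow. Summed over libraries without replicate 3, 38 counts in MKs cultured alone against 5 in the cocultures gave a ratio of 5.81 per total count (exact 95% interval 2.28 to 18.9, counting error only). With replicate 3 the sums were 38 and 22 counts.

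Adding both alpha globins before the fit, which avoids the split between copies, gave a log2 fold change of -0.78 ± 0.977 (edgeR adjusted p = 0.608) with all 8 libraries. Without coculture replicate 3, the summed alpha globins fell by 2.96 ± 0.391 on the log2 scale (edgeR adjusted p = 8.02e-06).

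**Figure D1:**
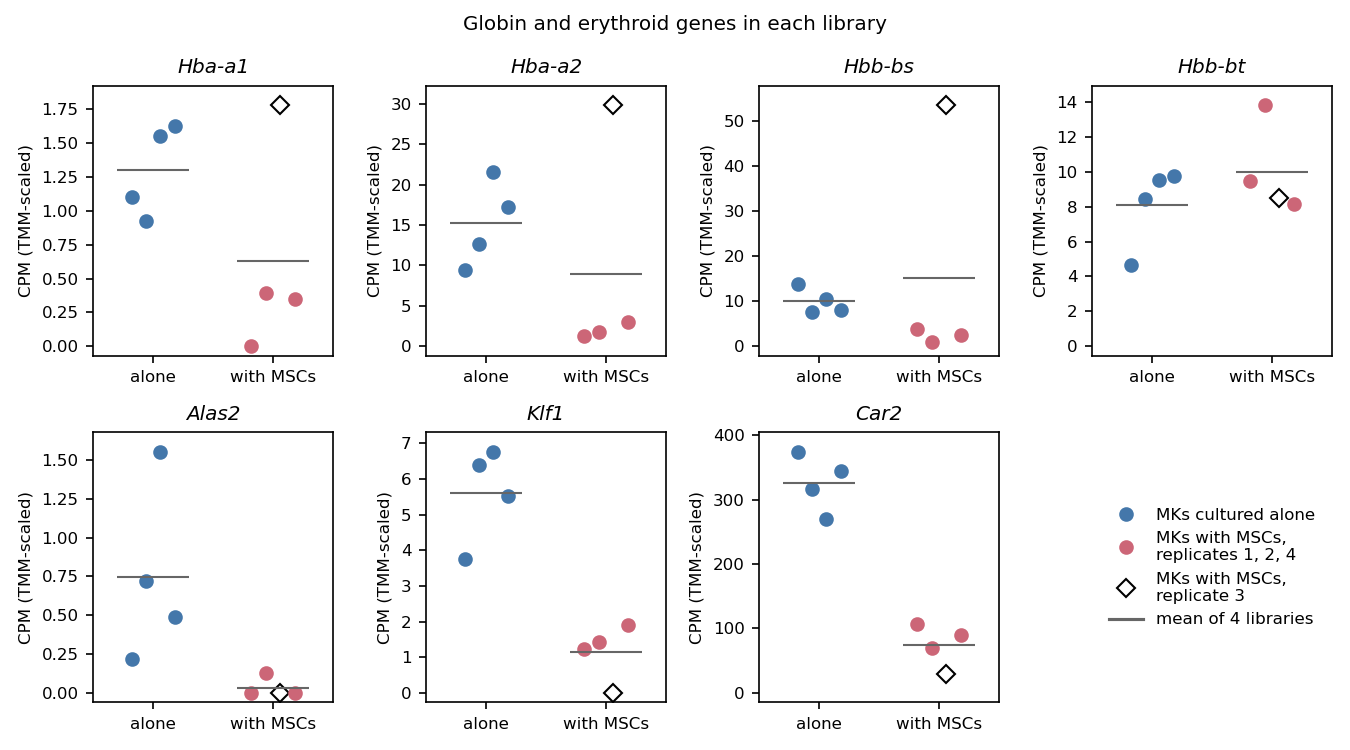
CPM (TMM-scaled, vertical axes) of the 7 genes with a row in each of the 4 libraries of MKs cultured alone and the 4 cocultures, with horizontal lines at the mean of the 4 libraries and an open diamond for coculture replicate 3. The diamond is the highest point for Hba-a1, Hba-a2 (29.8 CPM) and Hbb-bs (53.6 CPM) and the lowest, or tied for lowest, for Alas2, Klf1 and Car2.

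Hbb-bs and Hbb-bt are the adult beta globins of this strain. Hbb-bs was at 13.9, 7.63, 10.5 and 7.97 CPM in MKs cultured alone (10.01 ± 2.90, SD, n = 4) and at 3.89, 1.04, 53.6 and 2.43 CPM in the cocultures. Replicates 1, 2 and 4 of the cocultures were again below every library of MKs cultured alone, and the 512 counts of replicate 3 were the most of any adult globin in any library. The log2 fold change of Hbb-bs was 0.61 ± 1.11 (edgeR adjusted p = 0.733) with all 8 libraries and -2.0 ± 0.418 (edgeR adjusted p = 0.000699) without replicate 3, so the sign depended on that library.

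Hbb-bt was at 4.63, 8.45, 9.54 and 9.76 CPM in MKs cultured alone (8.10 ± 2.38, SD, n = 4) and at 9.48, 13.8, 8.48 and 8.15 CPM in the cocultures (9.98 ± 2.61, SD, n = 4). The groups overlapped, and coculture replicate 3 lay among the others. Its log2 fold change was 0.30 ± 0.476 (edgeR adjusted p = 0.693), and 0.34 ± 0.314 (edgeR adjusted p = 0.376) without replicate 3. For the summed beta globins the log2 fold change was 0.48 ± 0.591 (edgeR adjusted p = 0.604) with all libraries and -0.50 ± 0.233 (edgeR adjusted p = 0.0802) without replicate 3, and neither passed the test.

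The share of Hbb-bs in the beta globin counts was 75.0%, 47.4%, 52.5% and 45.0% in MKs cultured alone. In the cocultures it was 29.1%, 7.02%, 86.3% and 23.0%. The lowest, in coculture replicate 2, had a 95% Wilson interval of 3.60% to 13.2%, and the highest, in coculture replicate 3, had one of 83.3% to 88.9%. These intervals cover counting error only and not the uncertain split between the copies. The exact two-sided permutation test gave p = 0.343 with all libraries, and p = 0.0571, the smallest possible, without replicate 3 (55.0% against 19.7%).

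Globin transcripts were a very small part of all libraries. Over the library total with no other scaling, the 4 adult globins together were at 26.7, 31.1, 44.5 and 36.8 CPM in MKs cultured alone (34.8 ± 7.68, SD, n = 4). The cocultures were at 15.4, 18.7, 71.5 and 15.4 CPM (30.2 ± 27.5, SD, n = 4). The means differed by less than the spread of the cocultures (exact two-sided permutation test, p = 0.8, Benjamini-Hochberg adjusted 0.914 over 4 globin quantities). Without replicate 3 the cocultures were at 16.5 ± 1.92 (SD, n = 3), with no overlap between groups and p = 0.0571 by the same exact test (adjusted 0.0762).

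The ratio of alpha to beta globin counts separated the groups in all 8 libraries. It was 0.571, 0.846, 1.15 and 1.06 in MKs cultured alone (0.908 ± 0.258, SD, n = 4) and 0.0922, 0.149, 0.509 and 0.311 in the cocultures (0.266 ± 0.187, SD, n = 4). Every coculture, replicate 3 included, was below every library of MKs cultured alone. The exact two-sided permutation p was 0.0286, the smallest that 4 libraries against 4 allow, and 0.114 after Benjamini-Hochberg adjustment over the 4 globin quantities. Hba-a1 made up between 5.63% and 17.6% of the alpha globin counts in the 7 libraries where it had a count, and its share of the alpha counts had an exact two-sided permutation p of 0.914.

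**Figure D2:**
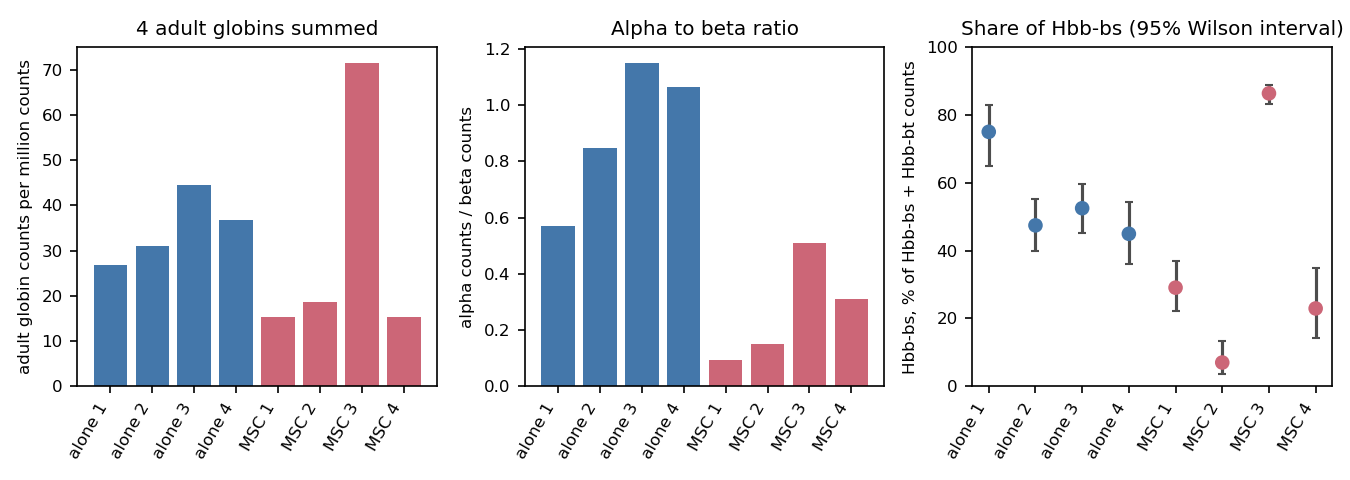
For each library, the 4 adult globins in CPM of the library total (left), the ratio of alpha to beta globin counts (middle) and the percentage of beta globin counts assigned to Hbb-bs with 95% Wilson intervals (right), with MKs cultured alone in blue and cocultures (MSC 1 to 4) in red. Coculture replicate 3 is the highest library for the sum (71.5 CPM) and for the Hbb-bs share (86.3%), while its alpha to beta ratio of 0.509 lies below all libraries of MKs cultured alone.

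Hbb-bh1, an embryonic beta-like globin that is not made by adult red cells in quantity, was the only gene with a row among 8 other globins and globin partners. It had 0, 3, 3 and 1 counts in MKs cultured alone and 29, 23, 43 and 10 counts in the cocultures (2.75, 3.0, 4.50 and 1.73 CPM). All cocultures were higher, in the direction opposite to the alpha globins, and every library of MKs cultured alone was at or under the floor of 3 counts. The edgeR log2 fold change was 3.68 ± 0.783 (adjusted p = 0.00983), and 3.34 (adjusted p = 0.00033) without replicate 3, and values fitted from so few counts are not precise. None of its 31-base words occurred in Hbb-bs, from which its coding sequence differed at 115 of 441 bases.

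Alas2 had 1, 7, 14 and 3 counts in MKs cultured alone (0.221, 0.721, 1.55 and 0.488 CPM), and 0, 1, 0 and 0 counts in the cocultures. All cocultures were lower, but no coculture was above the floor of 3 counts, and neither were replicates 1 and 4 of MKs cultured alone. Replicate 1 of MKs cultured alone (0.221 CPM) and coculture replicate 2 (0.130 CPM) each had 1 count, so only library size set them apart. The exact two-sided permutation p on CPM was 0.0286 (Benjamini-Hochberg adjusted 0.0571 over the 2 genes too low for edgeR). The summed counts of 25 and 1 gave a ratio of 29.9 per total count, with an exact 95% interval of 4.89 to 1227 for counting error only. Without replicate 3 the ratio was 19.1 and p was 0.0571, the smallest that the exact test allows. Alas2 (chrX:150547375-150570638, plus strand) overlaps Apex2 and Mir3620 on the minus strand, and the counting is not stated to use strand, so its few counts are uncertain.

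Klf1 (chr8:84901928-84905291, plus strand) was at 3.75, 6.39, 6.76 and 5.53 CPM in MKs cultured alone (5.61 ± 1.34, SD, n = 4) and at 1.23, 1.43, 0 and 1.91 CPM in the cocultures (1.14 ± 0.813, SD, n = 4). The groups did not overlap, and the 0 of replicate 3 stood beside the highest Hba-a2 and Hbb-bs levels of any library. The log2 fold change was -2.30 ± 0.947, with an edgeR adjusted p of 0.114. Without replicate 3 it was -1.93 ± 0.417, with an edgeR adjusted p of 0.000917, so that the call rested on whether this library was included while the direction did not.

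Car2 (chr3:14886273-14900770, plus strand) was the only abundant member, with between 281 and 3065 counts in a library. It was at 374, 316, 269 and 345 CPM in MKs cultured alone (326 ± 44.7, SD, n = 4) and at 107, 69.7, 29.4 and 90.4 CPM in the cocultures (74.1 ± 33.5, SD, n = 4). The lowest library of MKs cultured alone was above the highest coculture, and replicate 3 was the lowest of all. Car2 fell by 2.14 ± 0.368 on the log2 scale (edgeR adjusted p = 0.00365), and by 1.89 ± 0.197 (edgeR adjusted p = 5.31e-07) without replicate 3.

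Of the 5 members tested by edgeR, 1 was called lower and 0 higher with all 8 libraries, where 7.31% of 11722 genes were called lower and 13.2% higher. Without coculture replicate 3, 4 of the 5 were called lower and 0 higher, where 15.4% of 12267 genes were called lower and 20.6% higher. The median log2 fold change of the 5 was -0.76 with all libraries and -1.93 without replicate 3, against 0.03 over all genes tested in either fit. Of the 7 members with a row, 3 (Alas2, Klf1 and Car2) had all cocultures below all libraries of MKs cultured alone, a pattern that 21.1% of the genes tested showed, and 0 had all cocultures higher, against 19.3%. Without replicate 3, 6 of the 7 had all cocultures lower, all but Hbb-bt, against 25.4% of genes tested, and 0 had all cocultures higher, against 30.7%. These shares are over genes tested, which leaves out Hba-a1 and Alas2. Of the 5 members tested, Klf1 and Car2 had all cocultures lower with all libraries, and also Hba-a2 and Hbb-bs without replicate 3. DESeq2 with all libraries called 2 of the 5 lower (Car2 and Klf1) and 0 higher, against 10.7% and 15.8% of all genes in the same fit. It gave Hbb-bs no adjusted p, so Hbb-bs could not be called there. At an unadjusted edgeR p under 0.05, 2 were lower and 0 higher, against 14.5% and 21.7% of all genes. In these bulk libraries, fewer cells of a type and less RNA per cell cannot be told apart.

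**Figure D3:**
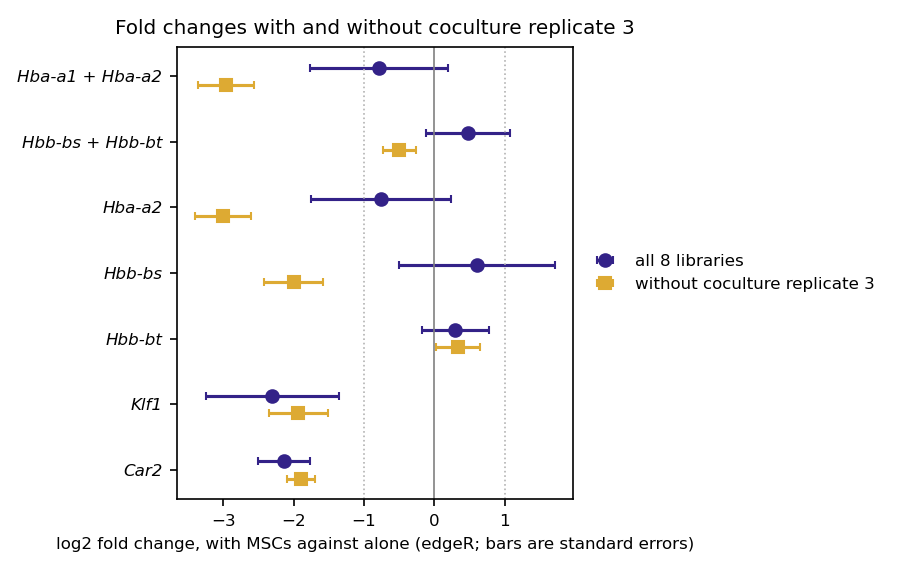
Log2 fold changes of cocultures against MKs cultured alone (horizontal axis) with edgeR standard errors as bars, for the 5 members tested and for the alpha and beta globins summed within pairs, with all 8 libraries (circles) and without coculture replicate 3 (squares). Hbb-bs lies at 0.61 with all libraries and at -2.0 without replicate 3, whereas Car2 lies at -2.14 and -1.89, and dotted lines mark a fold change of 2.

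Per kilobase of exon, the median level in MKs cultured alone was 136 CPM for Car2, 22.4 for Hba-a2, 12.8 for Hbb-bt, 12.0 for Hbb-bs, 3.90 for Klf1, 1.64 for Hba-a1 and 0.252 for Alas2. On this scale the ranges of Hbb-bt (6.59 to 13.9) and Hbb-bs (9.93 to 18.1) overlapped, and that of Hba-a2 (14.2 to 32.3) overlapped with Hbb-bs, so the order of these neighbours was not distinct. In coculture replicates 1, 2 and 4 the medians were 37.3 CPM per kilobase for Car2, 13.5 for Hbb-bt, 3.16 for Hbb-bs, 2.73 for Hba-a2, 0.936 for Klf1, 0.427 for Hba-a1 and 0 for Alas2. Hbb-bt was thus the most abundant globin in these 3 libraries. In replicate 3, Hbb-bs (69.8) and Hba-a2 (44.7) were above Car2 (12.1) and Hbb-bt (12.1). No other library had a globin above Car2.

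The wider red cell programme was read from 8 lists with 95 genes outside the members, of which 77 had a row and 70 were tested. With all libraries, 10 were called higher and 12 lower (13.2% and 7.31% over all genes), with a median log2 fold change of -0.37. Without replicate 3, 10 of 73 were called higher and 24 lower (20.6% and 15.4% over all genes), with a median of -0.28. These shares over all genes are the background for the counts of each list, and differences between lists were not tested.

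Erythroid transcription had 17 genes, all tested, of which 6 were called lower and 0 higher (11 lower and 0 higher without replicate 3), with a median log2 fold change of -1.26. Myb, which keeps early progenitors dividing, was at 158 to 190 CPM in MKs cultured alone and at 23.1, 20.2, 1.99 and 17.7 CPM in the cocultures (log2 fold change -3.43, edgeR adjusted p = 0.00456, and -3.08 without replicate 3). Nfe2, a factor needed for platelet release as well as for globin transcription, was at 283 to 428 CPM alone and at 69.9, 73.3, 4.29 and 77.5 CPM in the cocultures (-2.72, edgeR adjusted p = 0.0234, and -2.36 without replicate 3). Tal1, a partner of GATA1, fell by 1.49 on the log2 scale (edgeR adjusted p = 0.00332) and by 1.43 without replicate 3. E2f2, a cell cycle regulator of late red cell precursors, fell by 1.89 (edgeR adjusted p = 0.00394, 2.17 without replicate 3) and the KLF1 relative Klf13 fell by 1.26 (edgeR adjusted p = 0.00181, 1.33 without replicate 3). Gata1 itself, named after its values were seen, was at 53.6, 87.2, 76.6 and 79.7 CPM alone and at 25.3, 35.4, 82.1 and 32.1 CPM in the cocultures. As for Hba-a2 and Hbb-bs, replicate 3 was apart from the other cocultures, and the log2 fold change was -0.76 (edgeR adjusted p = 0.197) with it and -1.29 (edgeR adjusted p = 6.82e-05) without it.

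Heme synthesis enzymes other than Alas2 gave no calls. None of the 8 genes tested was called by edgeR in either direction, with or without replicate 3, and the median log2 fold change was 0.73 (0.43 without replicate 3). DESeq2 also called 0. At an unadjusted edgeR p under 0.05, 3 of the 8 were higher and 0 lower, against 21.7% and 14.5% of all genes. Without replicate 3, 3 were higher and 1 (Alas1) was lower at that cutoff, against 31.6% and 28.3% of all genes. In replicate 3, 7 of the 8 were above every other library. Alas1, the enzyme that other cells use in place of ALAS2, was the highest of the list. It was at 115 to 159 CPM alone and at 75.6, 120, 195 and 93.8 CPM in the cocultures. Its log2 fold change was -0.26 (edgeR adjusted p = 0.584). Without replicate 3 it was -0.61 (edgeR adjusted p = 0.013), which was under the fold required.

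Iron and heme transport had 12 genes, all tested, of which 4 were called higher and 1 lower (3 and 1 without replicate 3). Tfrc, the transferrin receptor that brings iron into dividing cells, rose by a log2 fold change of 1.23 (edgeR adjusted p = 0.0209), from 76.5 to 125 CPM alone to 310, 285, 122 and 206 CPM, and by 1.43 without replicate 3. Tfr2, a second transferrin receptor that associates with the erythropoietin receptor, was the one called lower, at 18.5 to 33.9 CPM alone and at 5.31, 5.47, 0.314 and 4.51 CPM in the cocultures (-2.78, edgeR adjusted p = 0.028, and -2.41 without replicate 3). Slc11a2, which moves iron out of endosomes, rose by 1.89 (edgeR adjusted p = 0.0188) and by 2.15 without replicate 3. Slc25a39, a mitochondrial glutathione carrier, rose by 2.71 (edgeR adjusted p = 0.0173) and was at 597 CPM in replicate 3, against 84.5, 109 and 151 CPM in the other cocultures. Without replicate 3 the rise of Slc25a39 was 1.64 (edgeR adjusted p = 3.58e-05). Tmem14c, a mitochondrial porphyrin transporter, rose by 1.06 (edgeR adjusted p = 0.0173), but its log2 fold change of 0.78 without replicate 3 was under the fold required. The most abundant gene, Snx3, which recycles the transferrin receptor, was not called (0.47, edgeR adjusted p = 0.323, and 0.014 without replicate 3).

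Red cell membrane and blood group genes had 14 of 20 genes with a row, and 10 were tested. Epb41, the protein 4.1 of the membrane skeleton, was the only one called, at 58.1 to 77.9 CPM alone and at 26.4, 24.5, 20.9 and 35.6 CPM in the cocultures (log2 fold change -1.31, edgeR adjusted p = 0.00736, and -1.24 without replicate 3). The most abundant, Mpp1, did not pass the test (-0.03, edgeR adjusted p = 0.948, and -0.36 without replicate 3). Without replicate 3, 6 of 13 were called lower and 1 higher. Among those lower was Icam4, an adhesion molecule of the red cell surface named after its values were seen, at 5.77 to 7.50 CPM alone and at 2.37, 3.78 and 3.82 CPM in coculture replicates 1, 2 and 4 (log2 fold change -1.03, edgeR adjusted p = 0.0195). Icam4 was among 7 of these 14 genes at 0 in replicate 3, the library with the most Hbb-bs and Hba-a2.

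Erythropoietin signalling had 6 genes tested, with 1 called higher and 1 lower, and 1 higher and 3 lower without replicate 3, where Jak2 and Stat5a, named after their values were seen, joined Stat5b. Bcl2l1, which codes for the survival protein BCL-XL of red cell precursors and platelets, rose by 1.5 (edgeR adjusted p = 0.0127, 1.05 without replicate 3), and Stat5b fell by 1.26 (edgeR adjusted p = 0.0202, 1.59 without replicate 3). Of 8 genes tested for red cell enzymes and late maturation, 2 were called higher and 1 lower, with the same counts without replicate 3. Prdx2, a peroxide-removing enzyme abundant in red cells, was at 58.7 to 96.3 CPM alone and at 273, 327, 568 and 300 CPM in the cocultures (log2 fold change 2.23, edgeR adjusted p = 0.00079, and 1.92 without replicate 3). Blvrb, biliverdin reductase B, was at 15.7 to 22.7 CPM alone and at 43.4, 68.8, 625 and 73.2 CPM, with a log2 fold change of 3.45 (edgeR adjusted p = 0.0212) that was 1.71 without replicate 3 (edgeR adjusted p = 6.03e-06). Bnip3l, which marks mitochondria for removal in maturing red cells, fell by 1.01 (edgeR adjusted p = 0.00666, 1.14 without replicate 3), a call that was lost when libraries were scaled to MK and platelet markers. Gpx1, the most abundant of the list, was at 405 to 672 CPM alone, and at 365, 514, 2723 and 547 CPM in the cocultures, and was not called (0.87, edgeR adjusted p = 0.345, and -0.28 without replicate 3).

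Genes by which macrophages clear heme had 8 tested, with 2 called higher and 2 lower, and the same counts without replicate 3. Lrp1, a receptor for heme bound to hemopexin, rose by 4.91 (edgeR adjusted p = 2.55e-05, 4.81 without replicate 3), and Blvra, biliverdin reductase A, rose by 1.45 (edgeR adjusted p = 0.0192, 1.02 without replicate 3). Slc40a1, the iron exporter ferroportin, was at 607 to 744 CPM alone and at 149, 111, 125 and 143 CPM in the cocultures (log2 fold change -2.34, edgeR adjusted p = 5.05e-05, and -2.33 without replicate 3). Hp, the hemoglobin-binding protein haptoglobin, fell by 1.16 (edgeR adjusted p = 0.0212) and by 1.05 without replicate 3.

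**Figure D4:**
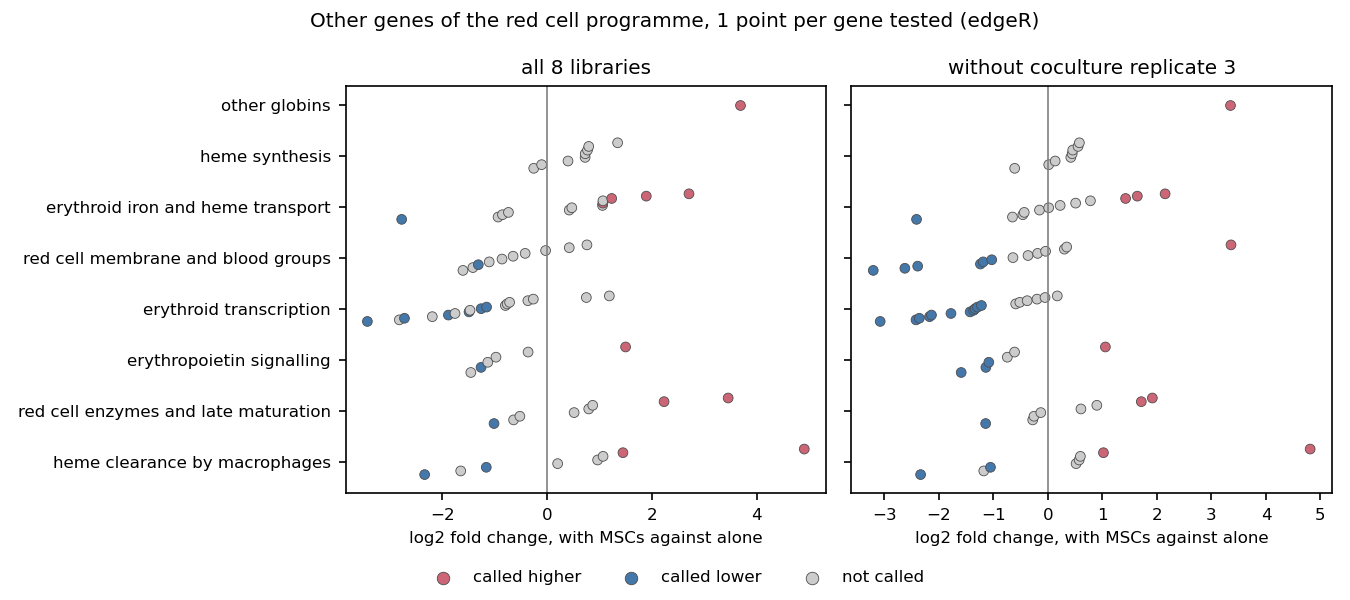
Log2 fold changes of cocultures against MKs cultured alone (horizontal axes) for each tested gene of the 8 lists, with all 8 libraries (left) and without coculture replicate 3 (right), coloured by whether edgeR called the gene higher, lower or neither. Transcription factors have 6 genes called lower on the left and 11 on the right with none called higher, while heme synthesis has none called in either panel.

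Coculture replicate 3 had no single direction over these genes. Of the 84 members and list genes with a row, 17 were at 0 there (20.2%, against 19.8% of all genes), 33 were above every other library (39.3%, against 30.7%) and 33 were below every other library (39.3%, against 42.2%). Among the members, Hba-a1, Hba-a2 and Hbb-bs were above, Car2 and Klf1 were below and Alas2 was tied with other cocultures at 0.

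Markers of other cells moved with the groups. Over all genes, edgeR called 13.2% higher and 7.31% lower with all libraries, and 20.6% and 15.4% without replicate 3. Summed MK and platelet markers were at 1911 to 2251 CPM alone and at 1761 to 2361 CPM in the cocultures, and 0 of 15 were called by edgeR. DESeq2 called 1 lower, against 10.7% of all genes, and 1 was lower at an unadjusted edgeR p under 0.05, against 14.5%. Without replicate 3, 1 of the 15 was called higher and 2 lower. Summed MSC markers were at 30.5 to 43.9 CPM alone and at 1683 to 4894 CPM in the cocultures, with 7 of 9 tested called higher (9 of 10 without replicate 3), and macrophage markers were at 150 to 225 CPM and 914 to 1357 CPM, with 8 of 9 called higher (10 of 10 without replicate 3). In the other direction, the 12 neutrophil markers were all called lower (summed 85188 to 87385 CPM alone, 4536 to 10313 CPM in the cocultures). So were 4 of 9 B cell markers (886 to 946 CPM and 91.1 to 236 CPM), 6 of 7 eosinophil markers (1068 to 1719 CPM and 12.2 to 64.2 CPM) and 5 of 7 mast cell and basophil markers (1251 to 1432 CPM and 148 to 298 CPM). Without replicate 3 the counts called lower were 12 of 12, 6 of 9, 6 of 7 and 6 of 7 in the same order. Osteoclast markers, a list of interest for Car2, were mixed, with 2 of 5 called higher and 1 lower (3 of 6 and 1 of 6 without replicate 3). Their sum of 1164 to 1710 CPM alone and 123 to 572 CPM in the cocultures was mostly Mmp9 (mean 1061 and 140 CPM) and Itgb3 (392 and 171 CPM), which is also on the MK list. Atp6v0d2 (0.152 and 33.2 CPM) and Tnfrsf11a (1.2 and 24.2 CPM) were called higher, against the direction of the sum, and Ctsk was at 0.334 and 21.2 CPM. In coculture replicate 3, 2 of 11 MSC markers, 1 of 15 MK and platelet markers, 1 of 10 macrophage markers, 2 of 9 B cell markers and 4 of 7 eosinophil markers were at 0, against 19.8% of all genes. The sums of replicate 3 were the lowest of all libraries for neutrophil, B cell, eosinophil, mast cell and osteoclast markers. The part of these cells in the levels of globin, Alas2, Klf1 and Car2 transcripts was not tested.

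The genes most like the members were found by the root mean square difference of centred log2(CPM + 1) over the 8 libraries, among 10436 genes with a mean of at least 5 CPM. Nearest to the adult globin sum were Sfxn5 (0.183), Taldo1 (0.187) and Gm42715 (0.193). Taldo1, a pentose phosphate enzyme, was at 455 to 705 CPM alone and at 238, 290.1, 1332 and 310.2 CPM in the cocultures, with the same high replicate 3 as the globins. Nearest to Car2 were Arid4a (0.159), Serinc3 (0.164) and Atp11b (0.176), and nearest to Klf1 were Smap2 (0.171), Osbpl2 (0.172) and Csf2rb (0.182). These 6 genes had their lowest level in coculture replicate 3, as Car2 and Klf1 did. Replicate 3 was among the 8 libraries used to choose all of these genes, so a shared level there follows from the choice. Of all genes, 42.2% were below every other library in replicate 3 and 30.7% were above. For Alas2, which varied little on this scale because its counts were so few, the nearest were Dhdds (0.137), Otud5 (0.150) and Ulk1 (0.174).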

How the data were processed

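Bulk RNA-Seq libraries of MKs cultured alone (n = 4) and of MK-MSC cocultures (n = 4) were grouped by their labels. For every gene the authors deposited a raw count. According to the study's methods and the processing notes, paired-end reads were filtered with fastp and quantified with kallisto on the mm10 transcriptome. Tool versions, the summing over transcripts, the use of strand and the batch in the authors' DESeq2 design are not given in the sources used here. Counts are whole numbers, the lowest total of a gene over 8 libraries was 11 counts, and floors and intervals cover counting error only, since reads carry no molecular identifiers.

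Counts were tested with R 4.3.3 and edgeR 4.0.16 (quasi-likelihood F test with robust estimation, scaling by TMM, filterByExpr, no covariate), with Benjamini-Hochberg adjustment over all 11722 genes that passed the filter (12267 without coculture replicate 3). A call required a 2-fold change, an adjusted p no higher than 0.05 and a group mean no lower than 1 CPM. Hba-a1 and Alas2 did not pass the filter and were compared by exact permutation tests (scipy 1.17.1 in Python 3.11). Alternatives were RLE factors, library size only, scaling to MK and platelet markers, no filter, DESeq2 1.42.0, limma 3.58.1 voom with quality weights, a replicate block in either tool (edgeR or DESeq2), and each library left out. Sequences came from GENCODE vM21 and RefSeq.

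The members and gene lists were chosen with earlier results of these data known. Named genes were the members, up to 5 called genes with the largest fold change and the most abundant gene of each list, and the 3 genes most like the adult globin sum and each other member. Other genes were chosen after their values were seen. The results of some list genes are not reported here by name.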

Additional observations from a re-analysis of the deposited data

Results flagged for a closer look

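In each group of 4 libraries, a value was looked at again where its gap to the nearest other library, divided by the range of the group, exceeded Dixon's 95% critical value of 0.829. Of 30 groups examined, 4 had such a library, and 3 of the 4 were in coculture replicate 3. Chance gives about 1 in 20 (1.5 groups here) only for independent, normal values. The groups share libraries and genes, so the 4 cannot be compared with 1.5. Adult globins were at 71.5 CPM of the library total in coculture replicate 3, against 15.4 to 18.7 in the other cocultures. The summed level of iron and heme transport genes was 10.6 on the log2(CPM + 1) scale in coculture replicate 3, against 9.80 to 9.82 in the other cocultures. The summed level of red cell enzymes and late maturation genes was 12.3 on the same scale in that library, against 10.7 to 10.8. Alas2 was at 0.177 on the log2(CPM + 1) scale in coculture replicate 2, which is 1 count, against 0 in the other cocultures. With all others at 0, any count would have been flagged.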

How the results depend on the processing

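Car2 was called lower in every alternative run, and Klf1, Hba-a2 and the summed alpha globins were lower in every one, though past the threshold in only some. No alternative called a member higher. Members called lower numbered 1 with all libraries, 2 with DESeq2 and with DESeq2 and the replicate block, 4 with voom quality weights, and 1 to 4 with each library left out (4 without coculture replicate 3). Over all genes, the shares called lower in these fits were 7.31%, 10.7%, 11.9% and 15.3%, and 15.4% without coculture replicate 3. The log2 fold change of the summed alpha globins passed the threshold at -3.05 with voom and at -2.04 with DESeq2 and the block, and ran from -2.96 (without coculture replicate 3) to -0.40 with each library left out. Hbb-bs turned from 0.61 to -2.14 with voom, -1.22 with the edgeR block, -1.26 with the DESeq2 block and -2.0 without coculture replicate 3, and ran up to 1.07 without coculture replicate 2. The summed beta globins turned to -0.42 with voom, and ran from -0.50 (without coculture replicate 3) to 0.79 with each library left out. DESeq2 without the block gave the summed beta globins no p and Hbb-bs no adjusted p. The difference in adult globin CPM of the library total turned to 0.413 without coculture replicate 1 and 0.395 without coculture replicate 4, and was -18.3 at its lowest, without replicate 3. List genes called lower were 22 with voom and 8 to 24 with each library left out. Of all genes, 15.3% were called lower with voom and 4.42% to 15.4% with each library left out. List genes called higher were 6 with the edgeR replicate block and 4 to 10 with each library left out, with 4 or 5 without each library of MKs cultured alone. In the same fits, in this order, 9.35%, 8.6% to 20.6%, and 8.6% to 9.06% of all genes were called higher. Except where a library was left out, the cause of these changes was not tested. As a check of pairing, the deviations of same-numbered libraries from their group means correlated at 0.301, 0.0159, 0.118 and 0.0164 over genes. Differently numbered libraries correlated at -0.224 to 0.086, so 0.301 and 0.118 were above all of these. The labels do not say whether the numbers pair the libraries, so the block is given as an alternative. The edgeR replicate block left Car2 called at a log2 fold change of -2.27 (edgeR adjusted p = 0.00974) and called no other member. DESeq2 with the block called Car2 and Hba-a2 (-2.05, DESeq2 adjusted p = 0.0275) but not Klf1 (DESeq2 adjusted p = 0.0677). Among the list genes, the edgeR block left Hbb-bh1, Slc11a2, Blvra, Blvrb, Tfr2, Nfe2 and Hp uncalled, with edgeR adjusted p from 0.0506 to 0.104. Depth limits Alas2, Hba-a1 and Hbb-bh1, which had at most 43 counts in a library.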
